A study of Ursus arctos with 5 samples.

Results

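NDRG2 (N-myc downstream-regulated gene 2, ENSG00000165795) was followed in the gastrocnemius of grizzly bears, *Ursus arctos*, through every assembled transcript that carries its name. These were 4 of the 26614 deposited transcripts and 4 of the 9093 that carry the name of a human gene. The gene was chosen from values of these same libraries, because its levels in hibernation lay above those in activity, so its own levels are given as a description without a test. The libraries came from 2 bears, named Tia and Star, whose calf muscle was biopsied under anesthesia in October, when they were active and fed, and in February, when they were hibernating and without food. Poly(A) RNA of each biopsy gave 1 Illumina library of single-end reads, 4 in all. The study describes the older bears it sampled as a subadult and an adult, while the sample labels give adults of 10 years throughout. The bears were captive, and both states come from the same animals. Season, feeding, activity and the dose of the injected anesthetic, which was lower in hibernation, changed together and cannot be told apart. No library was repeated within a bear, and a state is therefore represented by n = 2 bears.

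NDRG2 belongs to a small family of cytoplasmic proteins with an alpha/beta hydrolase fold but no known hydrolase activity. The family takes its name from repression by the MYC proteins. NDRG2 is abundant in skeletal muscle, heart and brain, where astrocytes are a main source. In muscle cells it is a target of insulin-responsive kinases, which phosphorylate its carboxy-terminal part, and its level has been linked to growth, stress and energy metabolism of the muscle fibre.

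The assembled transcripts are named isotig00505, isotig00506, isotig00507 and isotig00508. An isotig is the assembler's term for a chain of contigs that stands for one transcript variant. The authors' assembly placed all 4 in a single isogroup, a set of variants built from shared contigs. They measured 4471, 4429, 4098 and 2995 bases, and each had a different best human match (ENST00000556147, ENST00000403829, ENST00000553593 and ENST00000553503 in that order). Because variants of an isogroup share sequence, their values are not independent, and the 4 transcripts are readings of 1 gene rather than replicates. How a read that fits several variants was assigned is not given in the sources used here.

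Levels are RPKM, reads per kilobase of transcript scaled to the depth of the library, as deposited. The depth behind them was read from the steps of RPKM times length and was 50.1 M (mega) aligned reads in Tia and 54.2 M in Star in hibernation, and 52.5 M and 44.7 M in activity. At that depth 96.4% to 98.1% of the values used to find the step, 332 to 391 per library, fell within 0.1 of a whole read. The deposited table starts at 1 RPKM, a level that each of its 26614 transcripts reaches in every library. NDRG2 lay far above that limit, with between 5300 and 46042 reads behind each value.

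NDRG2 was higher in hibernation in both bears by each of its 4 transcripts. The longest, isotig00505, stood at 64.9 RPKM in the active and 131 RPKM in the hibernating Tia, and at 78.7 RPKM in the active and 190.2 RPKM in the hibernating Star. Both hibernating values lay above both active values, so the groups did not overlap, as for 34.6% of all annotated transcripts. This was a 2.01-fold difference in Tia and a 2.42-fold difference in Star. The mean level was 160.5 ± 42.0 RPKM in hibernation and 71.8 ± 9.76 RPKM in activity (SD, n = 2 bears each).

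Transcript isotig00506, only 42 bases shorter, stood at 59.2 RPKM in the active and 119 RPKM in the hibernating Tia, and at 71.2 and 172 RPKM in the active and hibernating Star. Transcript isotig00507 stood at 47.7 RPKM in the active and 94.2 RPKM in the hibernating Tia, and at 55.2 and 133 RPKM in Star. Both repeated the order of isotig00505 over the libraries, with folds of 2.02 and 1.97 in Tia and of 2.41 and 2.41 in Star. The shortest, isotig00508, went from 35.8 to 67.7 RPKM in Tia, a fold of 1.89, and from 39.6 to 98.3 RPKM in Star, a fold of 2.48. It had the smallest fold of the 4 in Tia and the largest in Star.

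**Figure D1:**
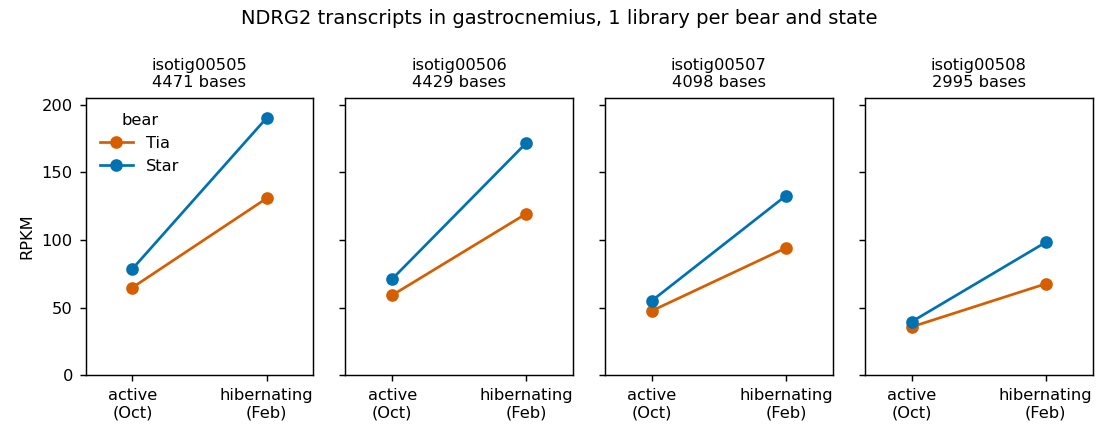
RPKM (linear axis from 0) of the 4 NDRG2 transcripts in the active (October) and hibernating (February) library of each bear, 1 point per library, lines joining the libraries of a bear. In every panel both hibernating points lie above both active points, as for 34.6% of all annotated transcripts, and Star lies above Tia in both states. Levels run from 35.8 RPKM for isotig00508 in the active Tia to 190.2 RPKM for isotig00505 in the hibernating Star.

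In all 4 transcripts the libraries stood in the same order, with the active Tia lowest, then the active Star, the hibernating Tia and the hibernating Star. The gap between the states was wider than the gap between the bears. For isotig00505 the hibernating Tia was 1.66 times the active Star, the next library below it. Star exceeded Tia by a factor of 1.21 in activity and of 1.45 in hibernation for the same transcript. For isotig00508 these factors were 1.11 and 1.45. With 1 library per bear and state, the difference between the bears has no replicate behind it and was not tested.

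On the log2(RPKM + 0.5) scale, which is used for changes from here on, isotig00505 differed between hibernation and activity by 1.00 in Tia and 1.27 in Star. Its mean change was 1.14 ± 0.19 (SD, n = 2 bears). The mean changes of isotig00506, isotig00507 and isotig00508 were 1.13 ± 0.18, 1.12 ± 0.20 and 1.10 ± 0.28. With the reads of all 4 transcripts summed, NDRG2 took 856 reads per M aligned reads in the active and 1703 in the hibernating Tia, and 1012 and 2449 in the active and hibernating Star. This sum is a 1.99-fold difference in Tia and a 2.42-fold difference in Star.

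The proportions of the 4 transcripts were nearly the same in all libraries. Of the reads assigned to NDRG2, isotig00505 held 33.9% to 34.8%, isotig00506 30.7% to 31.2%, isotig00507 22.2% to 22.9% and isotig00508 11.7% to 12.5%. No share moved by more than 0.846 percentage points over the libraries, while the summed level of the gene differed 1.99-fold in Tia and 2.42-fold in Star. The share of isotig00508 went from 12.5% (95% Wilson interval 12.2 to 12.9) in the active to 11.9% (11.7 to 12.1) in the hibernating Tia, and from 11.7% (11.4 to 12.0) to 12.0% (11.8 to 12.2) in Star. The bears thus went in opposite directions, and the 2 intervals of Tia do not overlap while those of Star do. The intervals cover counting error only, since amplified reads are not independent molecules and shared reads may have been divided among the variants.

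**Figure D2:**
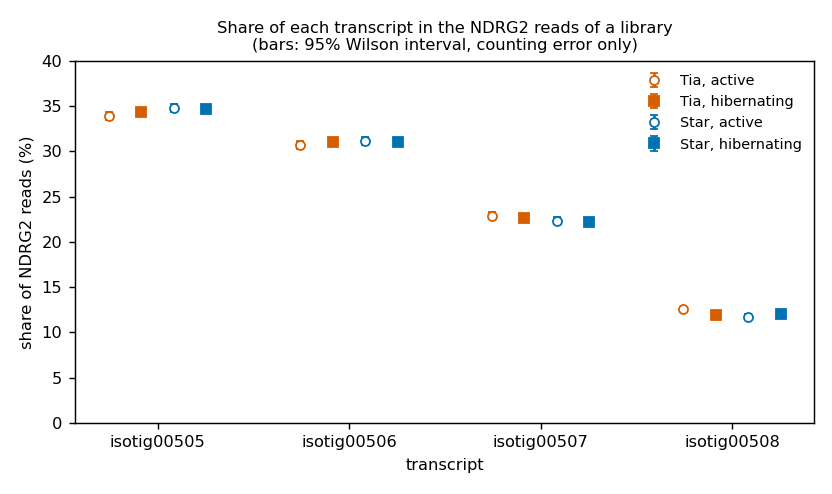
Share of each NDRG2 transcript in the reads assigned to NDRG2 (percent, axis from 0) for the 4 libraries, bars showing 95% Wilson intervals for counting error. Within a transcript the 4 points nearly coincide, between 11.7% and 12.5% for isotig00508 and between 33.9% and 34.8% for isotig00505.

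The level per length increased with the length of the variant in every library. Transcript isotig00507 has 1103 bases more than isotig00508 and its RPKM was 1.33 to 1.39 times as high. Transcript isotig00506 has 331 bases more than isotig00507 and stood 1.24 to 1.29 times as high, and the 42 further bases of isotig00505 went with a level 1.09 to 1.11 times as high. Levels of variants that share sequence depend on how reads were divided among them, which was not tested.

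The agreement among the 4 transcripts can be set beside other genes. Across the 182 genes with exactly 4 named transcripts, NDRG2 included, the range of the mean log2 change among a gene's transcripts had a median of 0.14 (quartiles 0.04 and 0.41), and 9 of these genes had a range above 1. For NDRG2 the range was 0.03, and 39 of the 182 genes had a smaller one. The NDRG2 variants share sequence and may share reads, so their likeness is not agreement between separate readings. How far the transcripts of the other genes share sequence was not examined, and nothing is read from the comparison.

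Against all annotated transcripts, non-overlap was common and a doubling in both bears was not. Both hibernating libraries lay above both active ones for 34.6% of the 9093 annotated transcripts, a group that holds all 4 NDRG2 transcripts, and below them for 8.8%. By the sign of the change alone, 47.8% were higher and 17.2% lower in both bears. A change of at least 2-fold upward in both bears was reached by 35 transcripts, 0.385%, and downward by 28, 0.308%. Of NDRG2, isotig00505 and isotig00506 were among the 35, while isotig00507 and isotig00508 fell just short in Tia, at log2 changes of 0.97 and 0.91 against 1.00 and 1.01 for the former pair. Since these shares come from the comparison that chose the gene, nothing is read from them. Without Star, 331 transcripts were at least 2-fold higher, and without Tia 137, all 4 NDRG2 transcripts among the latter. The scale moved these counts, since the median change over all annotated transcripts was 0.12 in Tia and 0.15 in Star. Median-ratio scaling, which lowered these medians by 0.12 and 0.18, gave 16 transcripts at least 2-fold higher and 46 lower in both bears, and upper-quartile scaling gave 18 and 44. Under them isotig00505 changed by 0.87 and by 0.86 in Tia, and by 1.07 and by 1.11 in Star, so that no NDRG2 transcript remained at 2-fold in both bears. None reached it with a pseudocount of 1 either, where isotig00505 changed by 0.999 in Tia.

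NDRG2 was also set among abundant transcripts. By mean RPKM the 4 transcripts ranked 227, 248, 304 and 391 of the 9093. Of the 391 at or above the mean level of isotig00508, 29.7% had both hibernating libraries above both active ones, all NDRG2 transcripts included. Of the same 391, 4 were at least 2-fold higher in both bears, 1.02%, and these were isotig00505, isotig00506, a 677-base transcript of MYH7B and the transcript of CTSD. MYH7B encodes a slow-type myosin heavy chain, and this transcript went from 40.1 to 158 RPKM in Tia and from 23.5 to 66.3 RPKM in Star. Myosin heavy chain genes resemble each other, and whether reads of this transcript come from a related gene was not tested. Over all levels, 12 other transcripts, of 6 genes, were as much higher as isotig00505 in both bears. They were several transcripts of MYH7B and a transcript each of ARAP1, TRIM29, PRRC2A, CMTM3 and COQ2. Their mean levels were at most 71.9 RPKM, against 116 RPKM for isotig00505. The cut that left 391 transcripts was set by an NDRG2 level that includes its hibernating values. As the gene was also chosen for its rise, nothing is read from these shares and counts.

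**Figure D3:**
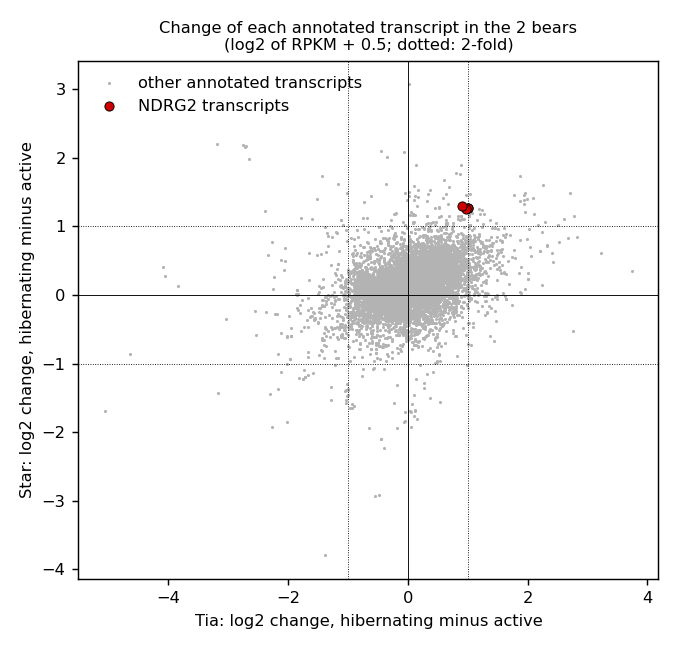
Log2 change (RPKM + 0.5, hibernating minus active) of each annotated transcript in Tia (horizontal) and Star (vertical), with the NDRG2 transcripts in red and dotted lines at 2-fold. The 4 NDRG2 points lie together in the upper right, at 0.91 to 1.01 in Tia and 1.26 to 1.30 in Star, close to the 2-fold line in Tia and beyond it in Star.

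Genes other than NDRG2 were tested with limma, a linear model with moderated variance, on 2 hibernating against 2 active libraries, with Benjamini-Hochberg adjustment over the 9093 annotated transcripts. None had an adjusted p under 0.05. An unadjusted p under 0.05 in limma was found for 826 transcripts, 9.08%, with 7.19% higher and 1.89% lower in hibernation. The fit, the adjustment and these counts take in the NDRG2 transcripts, whose own p-values are not used. Over all 4873 annotated genes, each by its transcript with the most reads, 2374 (48.7%) were higher and 783 (16.1%) lower in hibernation in both bears, and the median log2 change was 0.15. The lists of genes linked to NDRG2 were 5, with 50 genes, of which 22 had a named transcript. Of the 22, 7 were higher in both bears, 6 lower in both and 9 opposite in the bears, with a median log2 change of -0.05. None of the 22 passed the test (adjusted p from 0.541 to 0.977 in limma), and 2, MCRS1 and GLUL, had an unadjusted p under 0.05 in limma. With the bear as a replicate block this number was 5, and 3 under median-ratio and upper-quartile scaling, again with no adjusted p under 0.05 in limma. The tissue libraries are bulk samples, in which fewer cells of a type and less RNA per cell cannot be told apart.

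Of the NDRG family, NDRG1 alone had a named transcript besides NDRG2, and NDRG3 and NDRG4 were not analysed here. NDRG1, a stress- and hypoxia-responsive relative, stood at 4.94 RPKM in the active and 2.77 RPKM in the hibernating Tia and at 6.63 and 6.62 RPKM in Star. Its level was lower in the hibernating Tia and differed by less than 0.01 on the log2 scale in Star. The mean change was -0.37 with a standard error of 0.41 (limma adjusted p = 0.764). In every library NDRG1 lay far below each NDRG2 transcript.

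Among kinases and phosphatases that act on NDRG proteins, 6 of 14 were measured, 3 of them higher in both bears and 3 opposite. Over all annotated genes 48.7% were higher in both bears and 35.2% opposite. AKT2, the main insulin-responsive Akt kinase of muscle, went from 12.7 to 22.6 RPKM in Tia and from 19.6 to 22.5 RPKM in Star (mean change 0.50, limma adjusted p = 0.611). AKT1 stood at 24.0 and 32.5 RPKM in the active and hibernating Tia and at 42.3 and 41.9 RPKM in Star. GSK3B, a kinase that phosphorylates sites primed by other kinases, changed by 0.69 in Tia and 0.24 in Star. PPP2R1A, the scaffold subunit of protein phosphatase 2A, changed by 0.19 and 0.47. PDPK1 and PRKCQ, a muscle isoform of protein kinase C, had mean changes of -0.05 and -0.02. The SGK kinases and the catalytic subunits PPP2CA and PPP2CB were not analysed here. The median change of the 6 genes was 0.27, above the 0.15 of all genes, but by bear it was 0.31 in Tia and 0.09 in Star.

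Of 11 transcription regulators linked to NDRG2, 4 were measured and 3 were higher in both bears, against 48.7% of all annotated genes. HIF1A, the oxygen-regulated factor, went from 3.87 to 5.59 RPKM in Tia and from 2.60 to 4.48 RPKM in Star, with a mean change of 0.58 (limma adjusted p = 0.584). It has 12 transcripts, of which 10 were higher in both bears and 2 opposite. Here and below, the transcripts of a gene may share sequence and reads, so such counts are not independent readings. NR3C1, the glucocorticoid receptor, stood at 10.1 and 14.0 RPKM in the active and hibernating Tia and at 7.79 and 10.0 RPKM in Star, a mean change of 0.39. ZBTB17, the MYC-binding repressor cofactor also called MIZ-1, changed by 0.18 and 0.28. MAX, the dimer partner of MYC, changed by -0.43 in Tia and 0.13 in Star. MYC itself, ESRRA and PPARGC1A were not analysed here. The 4 genes had a median change of 0.31 in each bear.

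Of 6 binding partners, MCRS1 and CTNNB1 were measured. MCRS1, a nucleolar protein, went from 1.71 to 3.14 RPKM in Tia and from 1.62 to 2.302 RPKM in Star, and all of its 6 transcripts were higher in both bears (mean change 0.56, limma adjusted p = 0.549). Its levels were close to the lowest deposited value. CTNNB1, beta-catenin, changed by -0.08 and 0.31.

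Of 16 genes of the glucocorticoid and atrophy response, 9 were measured, of which none was higher in both bears, 5 were lower in both and 4 opposite. Over all annotated genes 48.7% were higher in both bears, 16.1% lower in both and 35.2% opposite. The median over the 9 was -0.50 on the log2 scale (0.15 over all genes). By bear it was -0.69 in Tia and -0.02 in Star, so that its size comes mainly from Tia. Either library of Tia can set such a difference, and which one did was not tested. GLUL, glutamine synthetase, had the widest difference that both bears shared, from 86.8 to 25.5 RPKM in Tia and from 88.7 to 37.6 RPKM in Star (mean change -1.49, limma adjusted p = 0.541). Its hibernating values lay below both active values, as for 8.8% of all annotated transcripts, and all 4 of its transcripts were lower in both bears. FKBP5, a chaperone of the glucocorticoid receptor, went from 5.62 to 2.52 RPKM in Tia and from 12.4 to 9.85 RPKM in Star, with all 9 transcripts lower in both bears and overlap between the states. FOXO1, a transcription factor of fasting and atrophy, went from 3.89 to 2.88 RPKM in Tia and from 4.05 to 2.25 RPKM in Star. PER1, a clock gene, changed by -0.67 and -0.33 by its transcript with the most reads, while of its 5 transcripts 2 were lower in both bears, 1 was higher in both and 2 were opposite. TSC22D3, also called GILZ, changed by -0.37 and -0.02. TRIM63, the muscle ubiquitin ligase MuRF1, changed by -0.71 in Tia and 0.17 in Star. PDK4, the kinase that inhibits pyruvate dehydrogenase, changed by -3.83 and 0.13. FBXO32, KLF15 and FOXO3 were not analysed here.

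**Figure D4:**
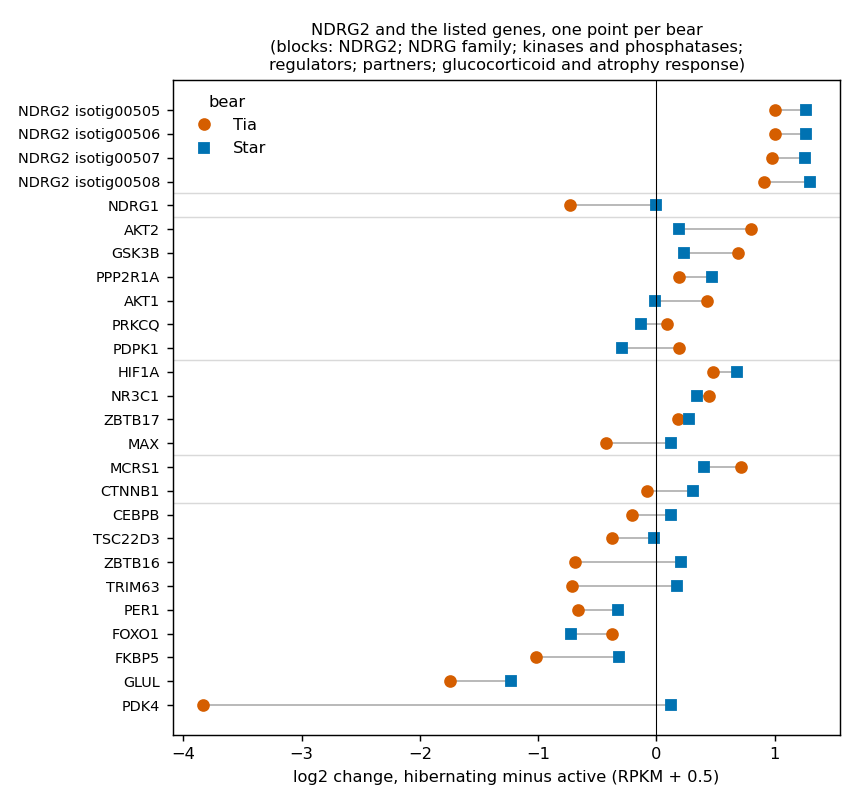
Log2 change (RPKM + 0.5, hibernating minus active) in Tia (circles) and Star (squares) for the 4 NDRG2 transcripts and the 22 measured genes of the 5 lists, a grey line joining the bears. The NDRG2 points lie between 0.91 and 1.30, to the right of every listed gene in both bears, while GLUL lies at -1.75 and -1.23.

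The genes with levels most like NDRG2 over the 4 libraries were found by the Euclidean distance between centred log2(RPKM + 0.5) values, over 4872 other genes whose median distance from isotig00505 was 1.17. The likeness rests on 4 libraries and is a description. The other NDRG2 transcripts lay at distances of 0.01, 0.06 and 0.10. Nearest among other genes was CTSD, the lysosomal protease cathepsin D, at 0.19, by a single transcript of 441 bases. It went from 52.4 to 124 RPKM in Tia and from 65.4 to 154 RPKM in Star, similar in level to NDRG2. The next were ZNF503 at 0.26, EPCAM at 0.29, ANKRD39 at 0.29 and PPIE at 0.33, all with mean levels below 10 RPKM. Of the 4 transcripts of PPIE, 2 were higher in both bears and 2 opposite. ABLIM1, an actin-binding LIM protein, followed at 0.34, with all 8 transcripts higher in both bears, then ANO2 at 0.34. MYOD1, the myogenic transcription factor, stood at a distance of 0.36, going from 1.79 to 4.72 RPKM in Tia and from 2.42 to 4.92 RPKM in Star. SLC23A3 and SHISA2 closed the 10, at 0.37 and 0.38.

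**Figure D5:**
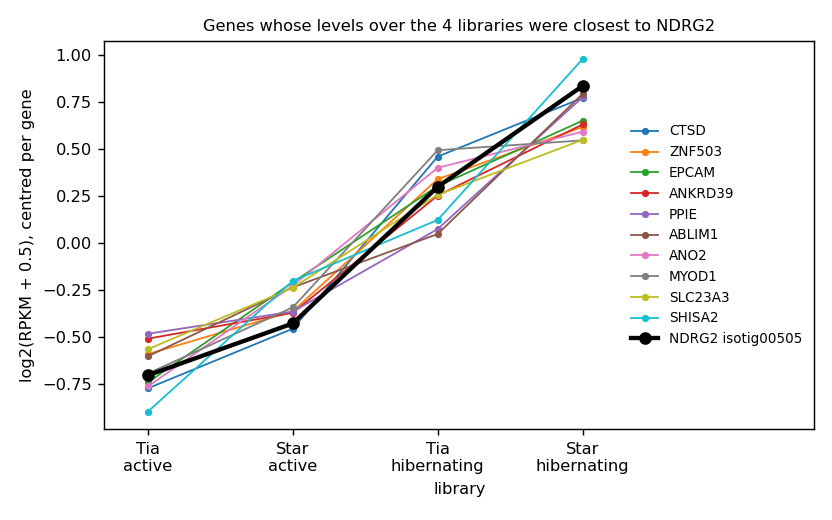
Log2(RPKM + 0.5), centred per gene, over the 4 libraries for NDRG2 isotig00505 (black) and the 10 nearest genes, lines serving only to connect the points of a gene. The 10 genes were picked for their likeness to NDRG2, so their order over the libraries follows from the choice. In all 11 both hibernating points lie above both active points, as for 34.6% of all annotated transcripts. CTSD, at a distance of 0.19, follows NDRG2 most closely.

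The muscle identity of the libraries was checked on markers. Of 12 skeletal muscle markers 6 had a named transcript, and their summed level was 13644 and 19240 RPKM in hibernation and 17234 and 21603 RPKM in activity (Tia and Star in this order, as below). ACTA1, CKM, DES, MB, PYGM and CASQ1 were not analysed here. The 4 measured fast fibre markers of 8 summed to 7260.0 and 13746 RPKM in hibernation and 9640.2 and 13978 RPKM in activity, and the 4 slow fibre markers of 8 to 5698 and 2259.7 against 5086 and 2819 RPKM. The fast fibre sum was lower in hibernation in Tia and only slightly lower in Star, and the slow fibre sum was higher in Tia and lower in Star. Of the fast fibre markers MYH1, TNNC2 and ATP2A1 were lower in both bears and MYH2 was higher in both. Of the slow fibre markers ATP2A2 and CASQ2 were higher in both bears, MYH7 was lower in both and MYL3 opposite.

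Other cell types were represented by few markers, and their part in the NDRG2 levels was not tested. For fat cells LPL and PLIN4 of 7 markers were measured, summing to 126 and 125 RPKM in hibernation and 191 and 95.6 RPKM in activity. For glia and Schwann cells, a known source of NDRG2 in nerve tissue, S100B alone of 7 was measured. S100B stood at 2.12 and 3.44 RPKM in hibernation and 13.1 and 1.19 RPKM in activity, opposite in the bears. Endothelial markers, 2 of 7, summed to 13.3 and 13.0 against 14.4 and 8.64 RPKM, and connective tissue markers, 4 of 7, to 277 and 229.8 against 337 and 160.1 RPKM. The connective tissue sum of the active Tia holds 193 RPKM of COL1A1, and without COL1A1 the sums were 266 and 221 against 144 and 153 RPKM, higher in hibernation in both bears. Of its members COL3A1 and COL1A2 were higher in both bears, FBN1 was lower in both and COL1A1 opposite. Of the 2 transcripts of COL1A2, however, 1 was higher and 1 lower in both bears. COL3A1, a fibrillar collagen, differed by 1.13 in Tia and 0.62 in Star, while of its 8 transcripts 3 were higher in both bears, 2 lower in both and 3 opposite. Leaving out COL1A1 was chosen after seeing the data. The blood and immune marker CD68, 1 of 7, stood at 6.41 and 7.12 against 3.94 and 3.28 RPKM, and the satellite cell markers MYOD1 and CDH15, 2 of 5, at a sum of 15.2 and 16.2 against 10.0 and 11.7 RPKM. The sums of the last 2 lists, and of connective tissue without COL1A1, were higher in hibernation in both bears. This direction was shared by 48.7% of all annotated genes. Most of the connective tissue sum without COL1A1 came from 1 COL3A1 transcript of 618 bases (254 of 266 RPKM in the hibernating Tia). The active library of Tia stood apart in PDK4 (580.3 RPKM against 40.2 to 173 RPKM in the other 3 libraries) and COL1A1 (193 RPKM against 6.79 to 11 RPKM). The hibernating library of Star stood apart in a transcript of CA3 (110 RPKM against 475 to 769 RPKM in the other 3 libraries). It did so too in a 2600-base transcript of TTN (155 RPKM against 598 to 794 RPKM). The NDRG2 change over the 4 transcripts was 0.91 to 1.01 in Tia and 1.26 to 1.30 in Star. What a library that stands apart contributes to these changes was not tested.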

How the data were processed

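The authors assembled transcripts de novo from pyrosequencing and paired-end Illumina reads (Newbler, SOAPdenovo), named them by BLAST against human proteins, aligned single-end reads with SOAP2 and deposited RPKM per transcript with the transcript length. The single-end libraries were made from full-length cDNA, and the sources used here do not say whether that cDNA had been normalized by nuclease, which lowers abundant transcripts. The paired-end and pooled libraries were not used here.

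Members and gene lists were chosen with earlier results of these data known. Changes are log2(RPKM + 0.5), hibernating minus active, averaged over the bears. Genes other than NDRG2 were tested two-sided by limma (version 3.58.1, R version 4.3.3), with a trend in the prior variance and 2 residual degrees of freedom, each by its transcript with the most reads. The study used NOISeq, which was not run here. The bear pairs the samples, since both states come from the same animals: the deviations of Tia from Star in both states had an r of 0.356 across 9093 transcripts. A fit with this replicate block was an alternative, called no transcript either, and has 1 residual degree of freedom. Named genes are the NDRG2 transcripts, the NDRG family, listed genes that moved the same way in both bears (at most 6 per list) and the 10 nearest profiles; other names were added after their values were seen. Depth was estimated by the step of RPKM times length. The scripts were tested on simulated data. Python 3.11.15 (numpy 2.4.6, scipy 1.17.1, pandas 2.3.3; figures by matplotlib 3.10.9) served for the rest.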

Additional observations from a re-analysis of the deposited data

How the results depend on the processing

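The mean log2 changes of the 4 NDRG2 transcripts stayed positive under pseudocounts of 0.1 and 1, under both scalings, in each bear by itself and with their reads summed. They moved by less than the spread between the bears under the pseudocounts, the scalings and the sum. Leaving out a bear gave 0.91 to 1.30 over the 4 transcripts, where with 2 bears the shift is below that spread by construction. The number of annotated transcripts at least 2-fold higher in both bears, 35, was 53 with a pseudocount of 0.1, 20 with a pseudocount of 1, 16 with median-ratio scaling, 18 with upper-quartile scaling and 23 at a mean RPKM of at least 5, and 137 to 331 in a single bear. The number at least 2-fold lower, 28, was 46 with median-ratio and 44 with upper-quartile scaling, and 68 to 274 in a single bear. No transcript had a limma adjusted p under 0.05 under any alternative, the replicate block by bear included, and the number with an unadjusted p under 0.05 ranged from 453 (mean RPKM of at least 5, where fewer are tested) to 1229 (replicate block), against 826. The block changed no call. Each NDRG2 value rests on at least 5300 reads, so the number of bears, 2, limits the precision more than the depth does.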

Other observations

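The genes listed next to NDRG2 in the RefSeq annotation of the bear assembly UrsArc2.0 were looked up after the NDRG2 values were known. Of the 6 nearest named ones, METTL17, SLC39A2, TPPP2, RNASE13, ARHGEF40 and ZNF219, 2 had a named transcript here. ARHGEF40 (4457 bases) went from 4.75 to 8.16 RPKM in Tia and from 3.63 to 7.20 RPKM in Star. Its mean log2 change was 0.81 with a standard error of 0.24 (limma adjusted p = 0.541). ZNF219 (657 bases) stood at 2.46 and 1.58 RPKM in the active and hibernating Tia and at 2.62 and 3.12 RPKM in Star, opposite in the bears. The RefSeq models of NDRG2 and TPPP2 overlap, and the deposited table has no strand, so reads from the overlap cannot be told apart.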
